A study of Ovis aries with 12 samples.

Results

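The comparison described here sets a diet with 2% added succinate against the basal diet without it, in 5-month-old Tan sheep (Ovis aries). The 2% libraries came from sheep fed the basal diet plus 2% succinate, and the basal libraries from sheep fed the basal diet alone; no other agent is named for either diet. Each diet had 3 libraries, so the comparison used 6 of the 12 RNA-sequencing libraries of the study, and the other 6 came from sheep fed 0.5% or 1% succinate. The trial held 36 sheep, 9 per diet, housed singly. Nothing in the labels ties a library to a single animal, so the p-values reflect variation between libraries that may be technical. The labels name no tissue, while the title of the study concerns proliferation of rumen epithelial cells.

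Succinate is an intermediate of the tricarboxylic acid cycle: succinyl-CoA ligase makes it, and succinate dehydrogenase, which is also complex II of the respiratory chain, oxidises it to fumarate. Outside the cell it is a ligand of the G protein-coupled receptor SUCNR1, and inside the cell it can inhibit oxygenases that use 2-oxoglutarate, among them the prolyl hydroxylases that mark HIF1A for destruction. In ruminants it is also made by rumen microbes, which largely turn it into propionate. The rumen wall is a stratified squamous epithelium over connective tissue and a thick coat of smooth muscle.

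The markers in these 6 libraries were those of smooth muscle. Desmin (DES), the intermediate filament of muscle, had 9188, 10219 and 8111 FPKM with 2% succinate and 8316, 7360.4 and 8119.9 FPKM with the basal diet. MYH11, the smooth muscle myosin heavy chain, had 2785, 3360.3 and 2485 FPKM with 2% succinate, against 1919, 2533 and 2938 FPKM with the basal diet. Both genes were abundant in every library and the diets overlapped. KRT5, the keratin that defines the basal layer of stratified epithelium, was listed at 0 in all 6 libraries, and its partner KRT14 was above 0 only in replicate 2 of the 2% diet, at 0.064 FPKM. Of the lists of epithelial markers, 4 of 12 basal-layer genes and 9 of 23 suprabasal genes were listed at 0 in all 6 libraries. In each of the 2 lists 5 members passed the filter on low values. Over the 6 libraries the integrin subunits ITGA6 and ITGB4 ran from 3.56 to 9.05 and from 1.33 to 8.61 FPKM. The cytoskeletal linker DST ran from 6.41 to 10.4 FPKM, the desmosomal protein PKP1 from 7.15 to 14.7 FPKM and the transcription factor KLF4 from 7.82 to 12.3 FPKM. ITGA6, DST and KLF4 are also made outside such epithelia, in endothelium, nerve or muscle. Values are therefore described as those of the sampled tissue and not of rumen epithelial cells.

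The 2% libraries held 17128959, 18717309 and 15637779 reads assigned to genes, and the basal libraries 16426453, 16168238 and 16098638. Expression is given as FPKM, in which fragments are divided by the length of the gene and the size of the library. Pearson's r between libraries, across genes, ran from 0.962 to 0.981. The diets did not separate on the first principal component, which held 38.0% of the variance: the 2% libraries had scores of 14.2, -18.9 and -9.32, and the basal libraries -25.1, 20.0 and 19.0. On the second component, with 22.8% of the variance, the 2% libraries had scores of 10.2, 18.0 and 8.84, against -22.5, -14.6 and 0.110 in basal libraries. Libraries also differed in how a gene's deviation followed its length. Spearman's rho between deviation and length, across genes, was -0.0110, 0.398 and 0.0660 in the 2% libraries, and -0.264, -0.283 and 0.170 in the basal libraries.

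Of 11775 genes that reached 1 FPKM in 3 or more of the 6 libraries, 5 passed an adjusted p of 0.05 by limma, which is 0.0425% of the genes tested, and all 5 were higher with 2% succinate. They were TOP2A, CKAP2, ANLN and KIF20A, which all act in chromosome segregation or cytokinesis, and LOC101120481, a locus that the file describes as a sphingolipid desaturase. None was called lower, while at an unadjusted p under 0.05 there were 447 higher genes, 3.8% of those tested, and 478 lower genes, 4.06%. The same limma model over all 12 libraries of the study called 0 genes in this comparison, with 365 at an unadjusted p under 0.05, and limma-voom on reads recovered from the FPKM called 0, with 886. Without any 1 of the 6 libraries limma also called 0, with 553 to 1220 genes at an unadjusted p under 0.05. The differences of the 5 genes in those runs stayed between 1.48 and 2.74 on the log2 scale, all higher with 2% succinate, with adjusted p by limma between 0.0574 and 0.285. The median difference over all genes tested was -0.00257 on the log2(FPKM + 1) scale, with quartiles of -0.137 and 0.126. For 1666 genes, 14.1%, the 3 libraries of one diet lay entirely above the 3 of the other, 7.41% higher with 2% succinate and 6.73% lower.

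Among the division genes, TOP2A encodes topoisomerase II alpha, which untangles sister chromosomes. It lies on chromosome 11 (40375580 to 40401944, minus strand), in the coordinates of the file, whose build is not given in the sources used here. It had 4.98, 4.3 and 5.47 FPKM with 2% succinate, against 0.565, 0.761 and 0.975 FPKM with the basal diet. Its lowest value with 2% succinate was above 4 FPKM and its highest with the basal diet was under 1 FPKM. Those values rest on 478, 451 and 480 reads in the 2% libraries, against 52, 69 and 88 in basal libraries. The difference of mean log2(FPKM + 1) was 1.75 (0.155 SE, limma adjusted p = 0.0305).

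CKAP2, a spindle microtubule protein on chromosome 10 (21846054 to 21867678, minus strand), had 12.7, 11.2 and 15.3 FPKM in 2% succinate libraries, against 1.45, 0.774 and 2.29 FPKM in basal libraries. It had the widest gap of the 5 genes, at 2.52 on the log2 scale (0.232 SE, limma adjusted p = 0.0305). ANLN, anillin, is the scaffold of the contractile ring that pinches dividing cells apart and lies on chromosome 4 (62379297 to 62546115, minus strand). Its values were 7.61, 7.83 and 10.4 FPKM with 2% succinate, against 2.04, 1.23 and 2 FPKM with the basal diet, a difference of 1.80 on the log2 scale (0.178 SE, limma adjusted p = 0.0349). KIF20A, a kinesin of the central spindle on chromosome 5 (47273817 to 47282146, plus strand), had 2.6, 2.88 and 3.58 FPKM in 2% succinate libraries, against 0.326, 0.269 and 0.437 FPKM in basal libraries. Its difference was 1.57 on the log2 scale (0.16 SE, limma adjusted p = 0.0349). None of the 4 genes overlapped between the diets, and TOP2A and KIF20A passed the filter on low values through the 2% libraries only.

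**Figure D1:**
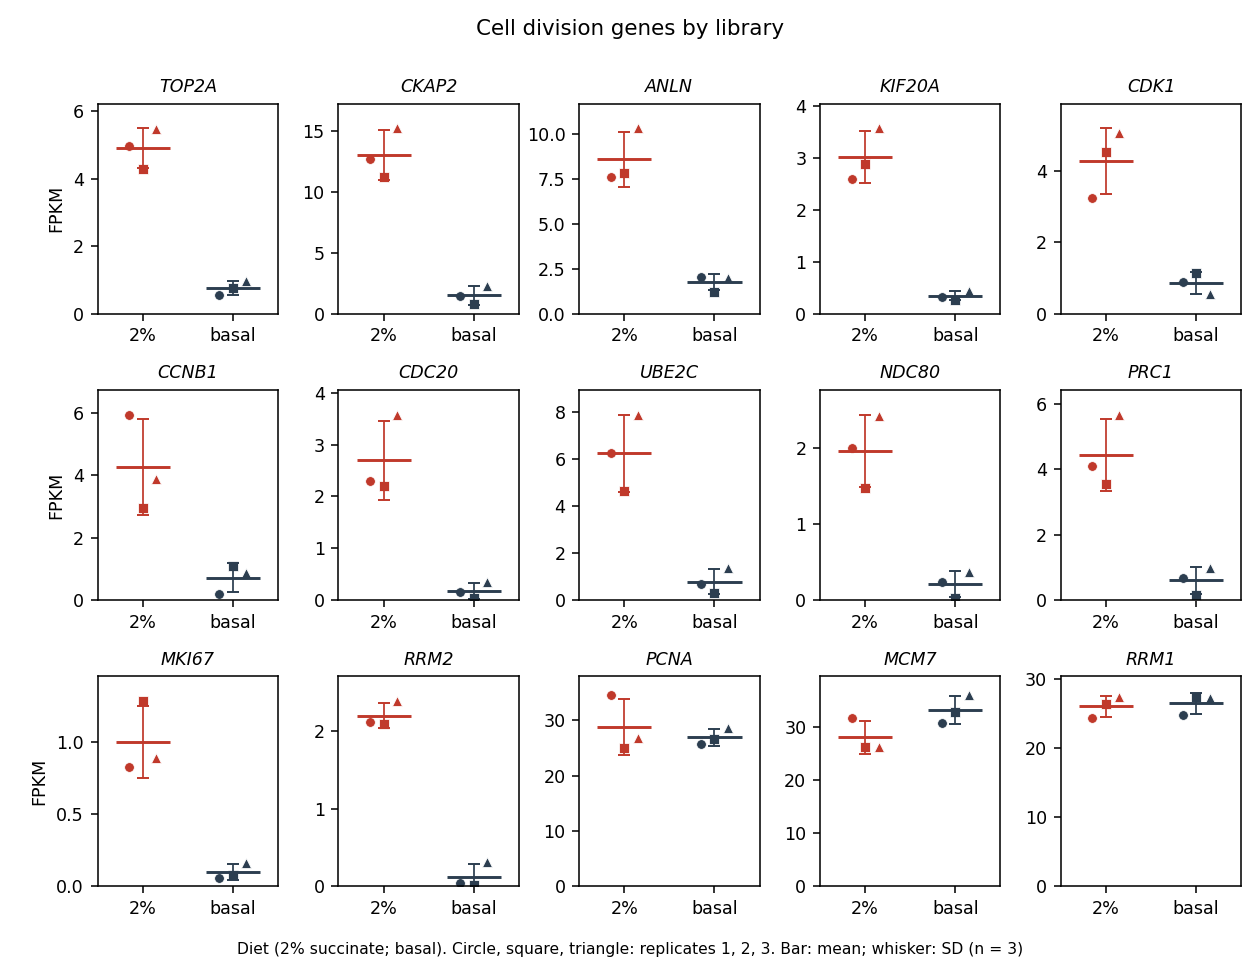
FPKM (vertical axis, from 0, scaled per gene) of 15 cell division genes in the 3 libraries with 2% succinate (left, red) and the 3 with the basal diet (right, dark blue); bars are means and whiskers SD. The mitotic genes of the first 11 panels sit apart between the diets, as does RRM2, while PCNA, MCM7 and RRM1 lie close together or overlap.

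The pattern of the called genes extended across the list of mitosis and chromosome segregation genes. All 61 genes of the list were in the file. The mean was higher with 2% succinate for 59, and for 50 of the 61 the libraries of the 2 diets did not overlap, all higher. Without a filter, 6.43% of the 17587 genes above 0 in any of the 6 libraries were apart in that direction. The summed FPKM of the list was 208.1, 181.9 and 235.2 with 2% succinate, against 94.8, 87.0 and 102.0 with the basal diet. Of the 46 members tested, 4 were called higher and none lower, where 0.0425% of all genes tested were called higher. The median difference was 1.00. Neither that count nor that median is support for a shift, since 20 of the 46, TOP2A and KIF20A among them, passed the filter through the 2% libraries only. In bulk RNA a larger share of dividing cells and more of this RNA per dividing cell cannot be told apart.

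The kinase that drives entry into mitosis, CDK1, had 3.25, 4.53 and 5.06 FPKM with 2% succinate, against 0.884, 1.148 and 0.551 FPKM with the basal diet (limma adjusted p = 0.0937). Its partner cyclin B1, CCNB1, had 5.93, 2.96 and 3.87 FPKM in 2% succinate libraries, against 0.198, 1.09 and 0.85 FPKM in basal libraries (limma adjusted p = 0.17). Both were apart between the diets without passing the threshold. The activator of the anaphase-promoting complex, CDC20, had 2.31, 2.21 and 3.57 FPKM with 2% succinate, against 0.148, 0.0376 and 0.34 FPKM with the basal diet (limma adjusted p = 0.0793). UBE2C, the ubiquitin-conjugating enzyme that works with that complex, had 6.23, 4.62 and 7.88 FPKM in 2% succinate libraries, against 0.696, 0.314 and 1.34 FPKM in basal libraries (limma adjusted p = 0.0834). The mitotic kinases showed the same order at lower levels: AURKB, of the chromosomal passenger complex, had 1.04, 1.04 and 1.09 FPKM with 2% succinate, against 0.0474, 0.0481 and 0 FPKM with the basal diet, and PLK1 had 1.75, 1.43 and 1.45 FPKM in 2% succinate libraries, against 0.731, 0.657 and 0.774 FPKM in basal libraries. CDC20, AURKB and PLK1 passed the filter on low values through the 2% libraries only.

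At the kinetochore, which ties chromosomes to the spindle, NDC80 had 2.01, 1.48 and 2.42 FPKM with 2% succinate, against 0.233, 0.0263 and 0.37 FPKM with the basal diet, and CENPF had 1.47, 1.67 and 2.32 FPKM in 2% succinate libraries, against 0.142, 0.138 and 0.341 FPKM in basal libraries. For the midzone of the spindle, PRC1, which bundles its microtubules, had 4.12, 3.54 and 5.67 FPKM with 2% succinate, against 0.665, 0.164 and 0.987 FPKM with the basal diet (limma adjusted p = 0.0937). NUSAP1 and TPX2, spindle assembly factors, were expressed in both diets: NUSAP1 had 7.39, 5.73 and 7.36 FPKM in 2% succinate libraries, against 2.1, 1.86 and 3.08 FPKM in basal libraries, and TPX2 had 8.95, 7.59 and 9.4 FPKM with 2% succinate, against 3.82, 3.46 and 5.04 FPKM with the basal diet. Their adjusted p by limma was 0.105 and 0.165. MKI67, the Ki-67 proliferation marker, had 0.822, 1.28 and 0.89 FPKM in 2% succinate libraries, against 0.0593, 0.0767 and 0.16 FPKM in basal libraries and was too scarce to be tested. Its libraries did not overlap. NDC80, CENPF and PRC1 passed the filter on low values through the 2% libraries only. CDC20, AURKB, PLK1, NDC80 and CENPF were named after their values were seen, as examples of their list.

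A minority of the list did not share this pattern. MYBL2, a transcription factor of late G1 and S phase, had 3.58, 2.3 and 1.73 FPKM with 2% succinate, against 3.55, 4.16 and 3.76 FPKM with the basal diet (limma adjusted p = 0.633). NUF2, a kinetochore protein and partner of NDC80, had 5.07, 6.01 and 4.82 FPKM in 2% succinate libraries, against 5.63, 4.54 and 6.66 FPKM in basal libraries, with the diets overlapping. KIF20B, a kinesin related to KIF20A, had 3.19, 3.1 and 4.29 FPKM with 2% succinate, against 3.77, 2.91 and 3.79 FPKM with the basal diet. PTTG1, securin, had 13.5, 8.35 and 9.92 FPKM in 2% succinate libraries, against 9.29, 10.6 and 7.17 FPKM in basal libraries. These 4 genes were also named after their values were seen.

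Across the 4 diets the 4 called division genes had intermediate and widely spread means at the lower doses. CKAP2 averaged 1.5 ± 0.761 FPKM with the basal diet, 6.8 ± 6.31 FPKM at 0.5%, 10.9 ± 10.1 FPKM at 1%, and 13.1 ± 2.05 FPKM at 2% (SD, n = 3 each). TOP2A averaged 0.767 ± 0.205 FPKM with the basal diet, 3.29 ± 3.07 FPKM at 0.5%, 4.18 ± 3.66 FPKM at 1%, and 4.92 ± 0.591 FPKM at 2% (SD, n = 3 each). At 0.5% and 1% the SD of TOP2A came close to its mean, so the libraries of those diets ran from low to high. ANLN averaged 1.76 ± 0.457 FPKM with the basal diet, 5.4 ± 5.3 FPKM at 0.5%, 7.23 ± 6.74 FPKM at 1%, and 8.6 ± 1.53 FPKM at 2% (SD, n = 3 each). In a model of all 12 libraries, limma called no difference of 2% from 0.5% or 1% for TOP2A, CKAP2, ANLN or KIF20A: adjusted p was 0.717 to 0.731 against 0.5% and 0.693 to 0.719 against 1%. The spread within the 2% diet was narrower than within the lower doses for KIF20A, which had 4.03, 0.561 and 1.27 FPKM at 0.5%, 0.9, 5.36 and 1.4 FPKM at 1%, and 2.6, 2.88 and 3.58 FPKM at 2%. The 4 genes were called on the 2% and basal libraries, which favours genes with a wide gap and a narrow spread there. Their order and spread across the doses are therefore no evidence on dose.

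The genes of DNA replication and deoxynucleotide supply lay in both directions. Over all 50 members, without a filter, 22 were higher and 28 lower with 2% succinate. Of the 50, 9 were apart and higher, where 6.43% of all genes above 0 were, and 2 apart and lower, where 5.65% were. Of the 41 tested 15 were higher and 26 lower, none was called, and the median difference was -0.06. The difference between these genes and the mitotic ones was not tested. PCNA, the sliding clamp of DNA polymerase, had 34.6, 25.1 and 26.7 FPKM with 2% succinate, against 25.6, 26.6 and 28.6 FPKM with the basal diet. MCM7, a subunit of the replicative helicase, had 31.8, 26.3 and 26.3 FPKM in 2% succinate libraries, against 30.8, 33 and 36.1 FPKM in basal libraries. RRM1, the large subunit of ribonucleotide reductase, had 24.3, 26.4 and 27.4 FPKM with 2% succinate, against 24.8, 27.4 and 27.3 FPKM with the basal diet. PCNA, MCM7 and RRM1 all overlapped between the diets. The 9 members apart and higher were the enzymes of nucleotide supply RRM2, DUT and TK1, and also CDC6, CDC45, GINS3, POLA1, UHRF1 and CLSPN. Of these, TK1, CDC6, CDC45, UHRF1 and CLSPN were too scarce to be tested. RRM2, the small subunit of ribonucleotide reductase that is degraded as cells leave mitosis, had 2.12, 2.1 and 2.39 FPKM in 2% succinate libraries, against 0.0392, 0.0199 and 0.32 FPKM in basal libraries (limma adjusted p = 0.0614). RRM2 passed the filter on low values through the 2% libraries only. DUT, the dUTPase that keeps uracil out of DNA, had 36.6, 30.8 and 37.4 FPKM with 2% succinate, against 23.6, 21.1 and 16.2 FPKM with the basal diet (limma adjusted p = 0.271). RFC3, a subunit of the clamp loader, was on the lower side with 6.21, 6.86 and 7.51 FPKM in 2% succinate libraries, against 7.63, 8.72 and 10.4 FPKM in basal libraries.

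The G1 regulators had 16 higher and 7 lower members of 23 tested, with a median of 0.14 and none called. CDKN2C, an inhibitor of the G1 kinases, had 26, 24.4 and 22.8 FPKM with 2% succinate, against 17.9, 18.2 and 17.9 FPKM with the basal diet (limma adjusted p = 0.337). E2F1, the transcription factor released by the retinoblastoma protein, had 1.51, 1.13 and 1.04 FPKM in 2% succinate libraries, against 0.412, 0.468 and 0.346 FPKM in basal libraries. E2F1 passed the filter on low values through the 2% libraries only. CCND1, cyclin D1, had 16.7, 23.2 and 26.8 FPKM with 2% succinate, against 30.4, 34 and 25.6 FPKM with the basal diet, and overlapped between the diets. CDK4, its kinase, had 42.1, 33.5 and 37 FPKM in 2% succinate libraries, against 38.5, 43.2 and 36.4 FPKM in basal libraries. MYC had 22.5, 21.6 and 18.7 FPKM with 2% succinate, against 36.3, 27.3 and 23.2 FPKM with the basal diet, lower in every 2% library (limma adjusted p = 0.62). TFDP1, a partner of the E2F factors, had 8.1, 9.13 and 8.49 FPKM in 2% succinate libraries, against 10.4, 12.1 and 10.9 FPKM in basal libraries. Of these, CDKN2C and E2F1 were apart and higher, and MYC and TFDP1 apart and lower. Of the 23 tested, 4 were apart and higher, where 7.41% of all genes were, and 2 apart and lower, where 6.73% were.

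Outside the cell cycle the one gene called higher with 2% succinate was LOC101120481, on chromosome 3 (49559667 to 49561102, plus strand). It had 6.3, 5.06 and 5.74 FPKM with 2% succinate, against 1.44, 0.991 and 1.3 FPKM with the basal diet, a difference of 1.58 on the log2 scale (0.145 SE, limma adjusted p = 0.0305). The file describes its product as the sphingolipid delta(4)-desaturase DES1, the product of DEGS1 on chromosome 12, which makes ceramide. Its listed length of 1436 bases equals its span on the chromosome. DEGS1 itself had 37.9, 24.2 and 34.3 FPKM in 2% succinate libraries, against 32, 42.3 and 36.5 FPKM in basal libraries (limma adjusted p = 0.803). The counting of reads between a locus and a near-identical gene is not given in the sources used here, so the identity of the reads at LOC101120481 is uncertain. It averaged 1.17 ± 0.106 FPKM at 0.5% and 2.85 ± 3.4 FPKM at 1% (SD, n = 3 each), where 1 library of the 1% diet held most of the signal at 6.77 FPKM.

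Among other genes ranked by p with no overlap between the diets, ALB, serum albumin, had 5.05, 4.63 and 3.55 FPKM with 2% succinate, against 0, 0.993 and 0.0906 FPKM with the basal diet (limma adjusted p = 0.0937). In the basal libraries that is 0, 33 and 3 reads, and ALB passed the filter on low values through the 2% libraries only. PRICKLE2, a planar cell polarity protein, had 11, 12.4 and 10.9 FPKM in 2% succinate libraries, against 7.6, 6.51 and 6.46 FPKM in basal libraries. SOX12, a SoxC transcription factor, had 4.61, 5.96 and 6.83 FPKM with 2% succinate, against 1.85, 2.36 and 2.85 FPKM with the basal diet. IGFBP2, which binds insulin-like growth factors, had 8.17, 9.22 and 14.7 FPKM in 2% succinate libraries, against 1.81, 4.52 and 4.49 FPKM in basal libraries (limma adjusted p = 0.4). None of these 4 passed the threshold.

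On the lower side no gene passed the test. FRZB, a secreted WNT antagonist also called SFRP3, came nearest, with 9.46, 8.69 and 11.1 FPKM with 2% succinate, against 19.7, 24.4 and 18.7 FPKM with the basal diet (difference -1.03, limma adjusted p = 0.0937). The other 11 tested WNT antagonists and targets had differences between -0.36 and 0.23, and FRZB lay below all of them. MRPS11, a protein of the mitochondrial ribosome, had 23.2, 23.4 and 23.3 FPKM in 2% succinate libraries, against 31.8, 36 and 30.8 FPKM in basal libraries. PGFS, prostaglandin F synthase, had 4.09, 3.45 and 3.46 FPKM with 2% succinate, against 5.97, 6.6 and 8.36 FPKM with the basal diet. FLRT3, a cell adhesion protein and FGF receptor partner, had 3.9, 3.72 and 3.75 FPKM in 2% succinate libraries, against 9.01, 9.13 and 5.49 FPKM in basal libraries. ZFX, a transcription factor on the X chromosome, had 7.49, 7.51 and 6.9 FPKM with 2% succinate, against 11.3, 10.1 and 10.5 FPKM with the basal diet. AMN1 had 6.31, 6.27 and 8.02 FPKM in 2% succinate libraries, against 13.2, 11.8 and 12.2 FPKM in basal libraries, and EFCAB1 had 2.59, 3.51 and 3.04 FPKM with 2% succinate, against 5.12, 5.48 and 5.36 FPKM with the basal diet. All 7 were lower in each 2% library than in any basal one, which was a condition for naming them. Of all genes tested, 6.73% met that condition. For the 6 genes after FRZB the adjusted p by limma was between 0.158 and 0.308.

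Tissue macrophage markers were lower on average with 2% succinate for all 17 tested members, with a median difference of -0.49. None passed the adjusted threshold. Over all 20 members, without a filter, 18 were lower and 2 higher, and 6 were apart and lower, where 5.65% of all genes above 0 were. The 3 chains of C1q, the recognition part of the classical complement pathway, are made mainly by macrophages. C1QA had 13.2, 12.8 and 16.3 FPKM in 2% succinate libraries, against 19.7, 23.8 and 32.2 FPKM in basal libraries. C1QB had 18.8, 20.6 and 24.8 FPKM with 2% succinate, against 37.3, 40.1 and 59.9 FPKM with the basal diet (limma adjusted p = 0.218). C1QC had 15.9, 16.6 and 25.2 FPKM in 2% succinate libraries, against 26.9, 32.5 and 36.6 FPKM in basal libraries. AIF1, a calcium-binding protein of macrophages, had 3.27, 1.71 and 2.94 FPKM with 2% succinate, against 5.53, 5.68 and 6.45 FPKM with the basal diet. VSIG4, a complement receptor of resident macrophages, had 0.587, 0.513 and 0.906 FPKM in 2% succinate libraries, against 1.5, 1.67 and 1.59 FPKM in basal libraries, and passed the filter through the basal libraries only. The broad macrophage protein CD68, named after its values were seen, overlapped between the diets, with 11.8, 10.3 and 7.8 FPKM with 2% succinate, against 8.38, 16.6 and 16 FPKM with the basal diet.

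As a list score, the mean deviation of the members from their mean over the 6 libraries, macrophage markers stood at -0.12, -0.47 and -0.20 with 2% succinate, against -0.21, 0.38 and 0.62 with the basal diet. Replicate 1 of the basal diet thus lay among the 2% libraries. This library and replicate 2 of the 2% diet had the lowest macrophage scores, as they did for fibroblasts, endothelium and adipocytes. The summed FPKM of the 20 listed markers ran from 173.6 to 237.6 with 2% succinate and from 222.1 to 410.3 with the basal diet, and none of the 20 was at 0 throughout. The part of these cells in the other differences was not tested. Without replicate 3 of the basal diet the list median was -0.25, and without replicate 1 it was -0.71. Members of the list were lower in 17 of 17 cases under TMM, quantile and length-corrected scaling. Chemokines, cytokines and complement had 19 of 23 members lower, with a median of -0.40. Of the 23, 3 were apart and lower, where 6.73% of all genes were, and 0 apart and higher, where 7.41% were. CCL19 and CCL21, ligands of the receptor CCR7, were apart: CCL19 had 2.67, 0.245 and 1.17 FPKM in 2% succinate libraries, against 2.97, 7.18 and 6.64 FPKM in basal libraries, and CCL21 had 32.3, 23.7 and 37.3 FPKM with 2% succinate, against 46.3, 129.7 and 52.8 FPKM with the basal diet. CFD, complement factor D, which is made by fat cells and macrophages, had 11.2, 8.19 and 12.3 FPKM in 2% succinate libraries, against 14.8, 31.4 and 34.8 FPKM in basal libraries. C3, the central complement protein, had 12.3, 3.9 and 7.26 FPKM with 2% succinate, against 5.45, 41.5 and 44.1 FPKM with the basal diet, and overlapped through replicate 1 of the basal diet. Of the 3 libraries with 2% succinate, replicate 2 had the lowest value for each of CCL19, CCL21, CFD and C3. Without replicate 1 of the basal diet the median of this list was -0.86, and without replicate 2 of the 2% diet -0.25. Lymphocyte markers were too scarce to compare, with 1 of 13 T and natural killer cell genes and 1 of 9 B and plasma cell genes tested. Of the markers of neutrophils and mast cells 1 of 9 was tested, and of the 4 red blood cell genes none. Of 21 interferon-induced genes 16 were lower, with a median of -0.15 that was 0.01 without replicate 2 of the basal diet.

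**Figure D2:**
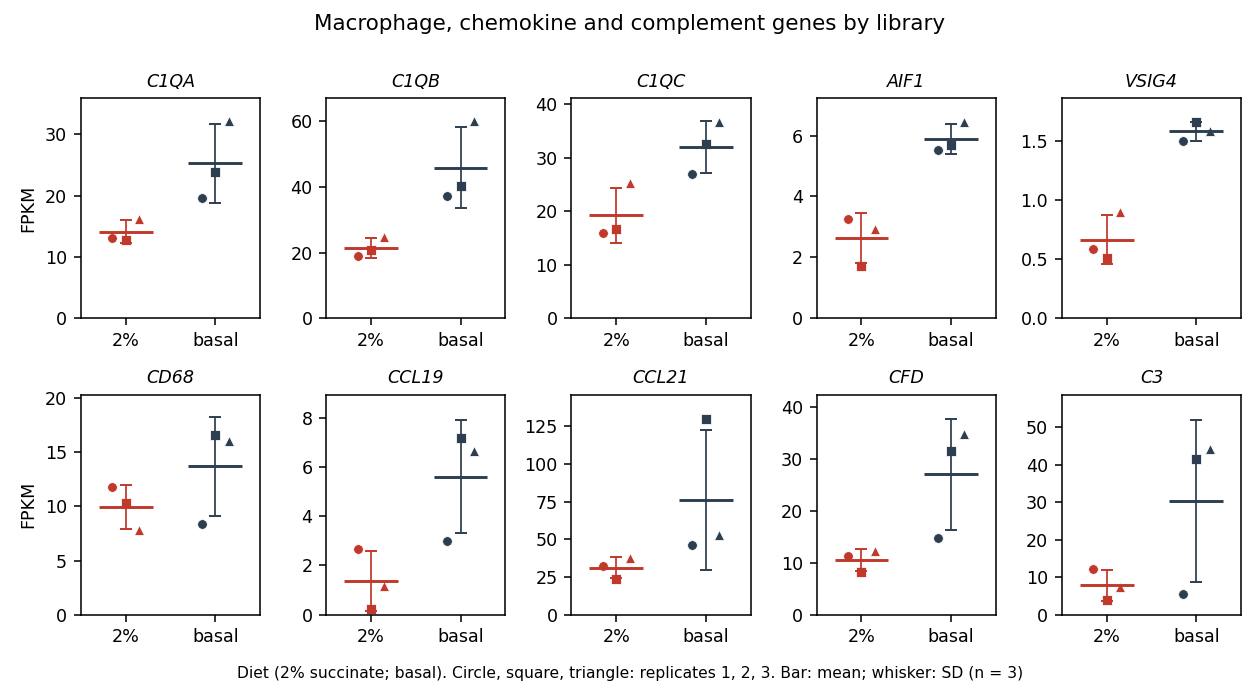
FPKM (vertical axis, from 0, scaled per gene) of macrophage, chemokine and complement genes in the 3 libraries with 2% succinate (left, red) and the 3 with the basal diet (right, dark blue); bars are means and whiskers SD. C1QA, C1QB, C1QC, AIF1, VSIG4, CCL19, CCL21 and CFD are lower in every 2% library, and CD68 and C3 overlap.

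Other cell types of the wall varied as much within a diet as between them. The fibroblast score was 0.48, -0.46 and 0.01 with 2% succinate and -0.82, 0.48 and 0.31 with the basal diet. The endothelial score was 0.35, -0.35 and -0.02 with 2% succinate and -0.60, 0.33 and 0.29 with the basal diet. Adipocyte markers spread most, at 1.14, -0.75 and -0.52 with 2% succinate and -1.01, 0.12 and 1.02 with the basal diet. The same libraries, replicate 2 of the 2% diet and replicate 1 of the basal diet, were lowest for fibroblasts, endothelium, adipocytes, chemokines, macrophages, glia and interferon-induced genes. Skeletal muscle markers had a median of -0.16 over 7 tested genes, and 3 of 11 mesothelial and simple epithelial markers were tested. In the summed FPKM of all 61 mitosis genes, which uses no filter, replicate 2 was likewise the lowest of the 2% libraries at 181.9, while replicate 1 of the basal diet, at 94.8, was not the lowest basal library.

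**Figure D3:**
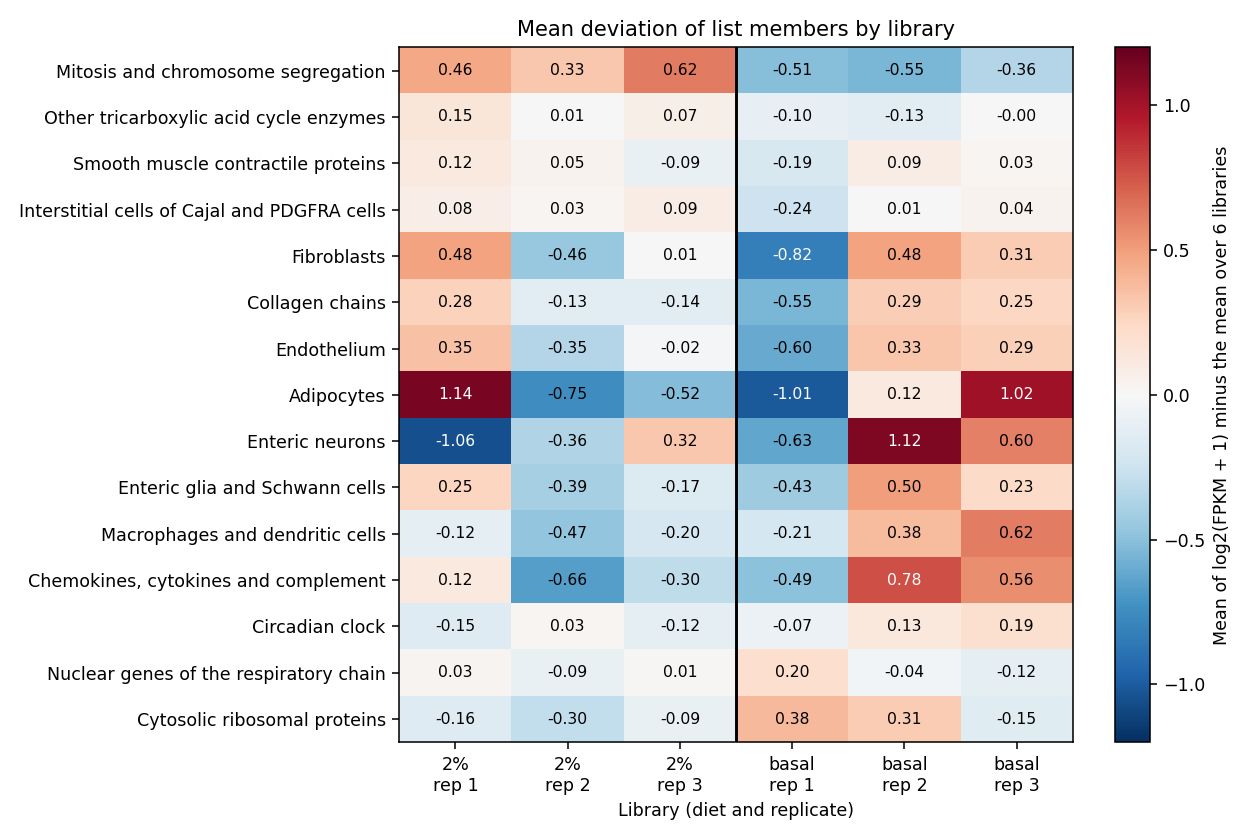
Mean deviation of the tested members of 15 gene lists from their mean over the 6 libraries, in log2(FPKM + 1) (colour and printed value), with the 2% libraries in the left 3 columns and the basal libraries in the right 3. The mitosis score separates the diets, with 20 of its 46 members having passed the filter on low values through the 2% libraries only, while fibroblast, endothelial and adipocyte markers are low together in replicate 2 of the 2% diet and replicate 1 of the basal diet.

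Nerve markers were scarce. Of 6 enteric neuron genes tested 5 were lower, with a median of -0.75, but by library the list score was -1.06, -0.36 and 0.32 with 2% succinate and -0.63, 1.12 and 0.60 with the basal diet. VIP, the relaxant neuropeptide of the gut wall, had 0.367, 2.69 and 5.59 FPKM in 2% succinate libraries, against 7.73, 11.7 and 8.24 FPKM in basal libraries (limma adjusted p = 0.594). SNAP25, a protein of synaptic vesicle release, had 1.38, 2.17 and 2.16 FPKM with 2% succinate, against 4.64, 9.48 and 2.5 FPKM with the basal diet. Both were lower in every 2% library, so 2 of the 6 were apart and lower, where 6.73% of all genes were. The other 4 tested genes overlapped, and without replicate 2 of the basal diet the median was -0.29. Over all 19 members, without a filter, 3 were apart and lower, where 5.65% of all genes above 0 were. Interstitial cells of Cajal, the pacemakers of gut muscle, are marked by KIT, which had 9.33, 7.88 and 7.68 FPKM in 2% succinate libraries, against 7.07, 6.06 and 7.52 FPKM in basal libraries. ANO1, another marker of these cells, named after its values were seen, was lower on average and overlapped. It had 5.23, 5.92 and 6.11 FPKM with 2% succinate, against 6.23, 5.43 and 7.28 FPKM with the basal diet. In the list of these and PDGFRA cells 5 of 6 genes were higher, with a median of 0.17 and none called. Apart and higher were 2 of the 6, where 7.41% of all genes were. Enteric glia had 8 of 9 members lower, with a median of -0.22, which was -0.03 without replicate 2 of the 2% diet and -0.52 without replicate 1 of the basal diet.

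Smooth muscle contractile proteins differed little between the diets, with 15 of 25 higher, a median of 0.08 and none called. ACTA2, smooth muscle alpha-actin, ranged widely inside each diet, with 509.7, 38.8 and 85.4 FPKM with 2% succinate, against 18.2, 363 and 334 FPKM with the basal diet. Its range within either diet was larger than the difference between the diet means. MYL9, the regulatory myosin light chain, had 8359, 7376 and 7272 FPKM in 2% succinate libraries, against 5635, 7864 and 5634 FPKM in basal libraries. Of 26 calcium handling and channel genes 18 were higher, with a median of 0.15 that was 0.04 without replicate 1 of the basal diet. KCNMB1, the beta subunit of the large-conductance potassium channel of smooth muscle, had 119, 152 and 137 FPKM with 2% succinate, against 87.9, 102 and 112 FPKM with the basal diet (limma adjusted p = 0.553). RYR3, a calcium release channel, had 4.35, 5.88 and 4.35 FPKM in 2% succinate libraries, against 3.75, 3.05 and 3.47 FPKM in basal libraries. TRPC4, a cation channel, was on the lower side with 4.49, 5.45 and 3.91 FPKM with 2% succinate, against 7, 5.6 and 7.87 FPKM with the basal diet. Of 23 heat shock genes 6 were apart and higher, where 7.41% of all genes were: HSPA4L, HSPB1, HSPB6, HSPB7, DNAJB6 and HSF1. None was called. The small heat shock protein HSPB6 had 359.9, 346 and 297 FPKM in 2% succinate libraries, against 245, 249 and 267 FPKM in basal libraries, and HSPB7 had 31.4, 30.5 and 28.7 FPKM with 2% succinate, against 23.7, 23.9 and 19.8 FPKM with the basal diet. The list as a whole had 15 of 23 higher, with a median of 0.06 that was -0.01 without replicate 2 of the basal diet.

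The genes that make, use or sense succinate did not separate. Of 13 tested members 8 were higher and 5 lower, the median was 0.01, and none was apart between the diets. For the subunits of succinate dehydrogenase, the flavoprotein SDHA had 65.7, 53.7 and 55.1 FPKM in 2% succinate libraries, against 50.4, 58.1 and 64.2 FPKM in basal libraries. The iron-sulfur subunit SDHB had 13.5, 11.2 and 11.5 FPKM with 2% succinate, against 11.7, 11.4 and 11.7 FPKM with the basal diet. The membrane anchors followed, SDHC with 114, 105 and 107 FPKM in 2% succinate libraries, against 105, 106 and 104 FPKM in basal libraries, and SDHD with 180.0, 158 and 179 FPKM with 2% succinate, against 184, 164 and 165 FPKM with the basal diet. Of the succinyl-CoA ligase subunits, the shared alpha subunit SUCLG1 had 135, 130.0 and 147 FPKM in 2% succinate libraries, against 141, 129 and 130.3 FPKM in basal libraries. The GDP-forming beta subunit SUCLG2 had 115, 132 and 151 FPKM with 2% succinate, against 134, 122 and 92.8 FPKM with the basal diet, and the ADP-forming SUCLA2 had 30.4, 30.1 and 37.4 FPKM in 2% succinate libraries, against 35.4, 29.7 and 33.3 FPKM in basal libraries. Every one of these genes overlapped between the diets. The differences of these 7 genes lay between -0.01 and 0.20, with SE between 0.0957 and 0.17. OXCT1, which spends succinyl-CoA to activate ketone bodies, had 55.6, 79 and 78.7 FPKM with 2% succinate, against 71.5, 45.4 and 59 FPKM with the basal diet. The receptor SUCNR1 had 0.855, 0.532 and 0.393 FPKM in 2% succinate libraries, against 0.535, 0.725 and 1.11 FPKM in basal libraries and was below the filter. Of possible carriers, the monocarboxylate transporter SLC16A1 had 34.3, 40.4 and 42.8 FPKM with 2% succinate, against 45.7, 19.4 and 37.7 FPKM with the basal diet, and the sodium/proton exchanger SLC9A3 was listed at 0 in all 3 libraries with 2% succinate and in 1 basal library. Over 16 carriers and proton exchangers the median was -0.01.

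The other enzymes of the tricarboxylic acid cycle were mostly higher on average, without a call. Of 23 tested enzymes 20 were higher with 2% succinate, against 49.5% of all genes, with a median of 0.13, and 4 were apart and higher, where 7.41% of all genes were. OGDH, the 2-oxoglutarate dehydrogenase that feeds succinyl-CoA into the cycle, had 28.2, 32.7 and 28.5 FPKM in 2% succinate libraries, against 17.5, 22 and 27.2 FPKM in basal libraries. ME2, the mitochondrial malic enzyme, had 24.5, 32.4 and 29 FPKM with 2% succinate, against 21, 18.3 and 23.3 FPKM with the basal diet. CS, citrate synthase, had 64.1, 78.7 and 70.8 FPKM in 2% succinate libraries, against 55.3, 57.6 and 63.9 FPKM in basal libraries. Their adjusted p by limma was between 0.553 and 0.635. IDH3G, a subunit of isocitrate dehydrogenase, was apart and lower, with 66.1, 68.9 and 67.9 FPKM with 2% succinate, against 78.7, 75.7 and 69.9 FPKM with the basal diet. For 53 nuclear genes of the respiratory chain, 21 were higher and 32 lower, and the median of -0.04 turned to 0.13 once the trend with gene length was removed.

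**Figure D4:**
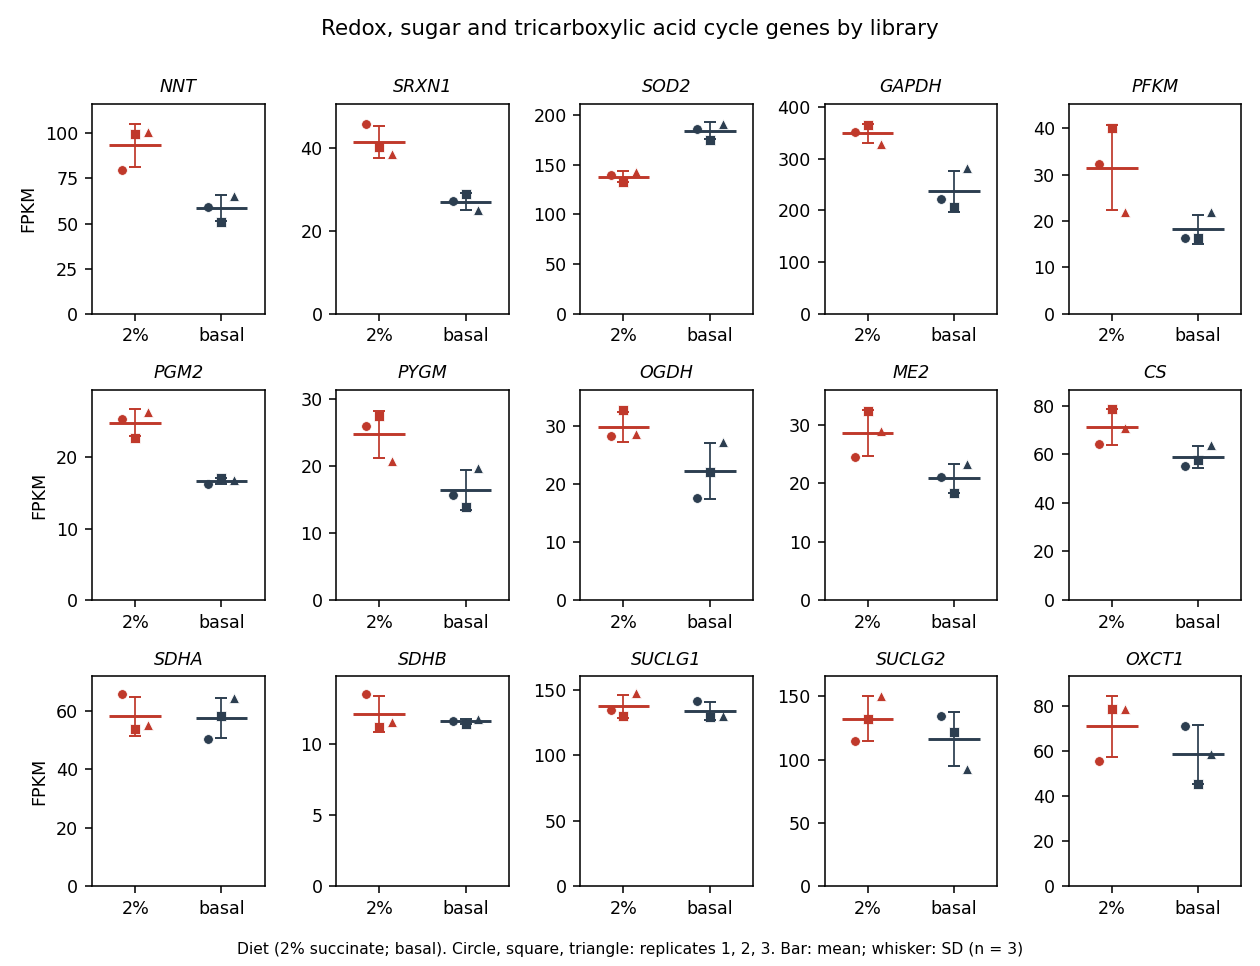
FPKM (vertical axis, from 0, scaled per gene) of redox, sugar and tricarboxylic acid cycle genes in the 3 libraries with 2% succinate (left, red) and the 3 with the basal diet (right, dark blue); bars are means and whiskers SD. NNT, SRXN1, PGM2, PYGM, GAPDH, OGDH, ME2 and CS are higher and SOD2 is lower in every 2% library, while SDHA, SDHB, SUCLG1, SUCLG2 and OXCT1 overlap.

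Several enzymes of sugar use were higher in each 2% library than in any basal one, none past the adjusted threshold. These were 4 of 17 glycolysis genes and 4 of 21 glycogen and phosphoglucomutase genes, where 7.41% of all genes were apart and higher. Apart and lower were 0 of the 17 and 1 of the 21, where 6.73% of all genes were. Of 17 glycolysis genes 12 were higher, with a median of 0.16 that became -0.03 without replicate 1 of the basal diet. GAPDH had 352, 366 and 329 FPKM in 2% succinate libraries, against 222, 206 and 282 FPKM in basal libraries (limma adjusted p = 0.439). PFKM, the muscle phosphofructokinase, had 32.4, 40.2 and 21.9 FPKM with 2% succinate, against 16.4, 16.3 and 21.9 FPKM with the basal diet, so its lowest 2% library and highest basal library were nearly level. Among 21 glycogen and phosphoglucomutase genes 16 were higher, with a median of 0.11 that was 0.04 without replicate 3 of the 2% diet. PGM2, a phosphopentomutase, had 25.3, 22.7 and 26.4 FPKM in 2% succinate libraries, against 16.2, 17.1 and 16.8 FPKM in basal libraries (limma adjusted p = 0.188). PYGM, muscle glycogen phosphorylase, had 26, 27.5 and 20.7 FPKM with 2% succinate, against 15.8, 13.9 and 19.7 FPKM with the basal diet. Both were apart and higher. PGM3, which makes a precursor of UDP-N-acetylglucosamine, was apart and lower, with 11, 13.4 and 13.6 FPKM in 2% succinate libraries, against 23.8, 19.1 and 14.8 FPKM in basal libraries.

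The NADPH and thiol antioxidant genes split, with 16 higher and 21 lower of 37 tested and a median of -0.04. SRXN1, sulfiredoxin, which repairs overoxidised peroxiredoxins, had 46, 40.4 and 38.5 FPKM with 2% succinate, against 27.3, 29 and 25 FPKM with the basal diet (limma adjusted p = 0.204). NNT, the mitochondrial transhydrogenase that makes NADPH, had 79.7, 99.4 and 101 FPKM in 2% succinate libraries, against 59.4, 50.9 and 65.3 FPKM in basal libraries (limma adjusted p = 0.297). SOD2, the mitochondrial superoxide dismutase, had 139.5, 132 and 143 FPKM with 2% succinate, against 187, 175 and 192 FPKM with the basal diet (limma adjusted p = 0.411). All 3 were apart between the diets, SOD2 in the lower direction. Of the 37 genes, 2 were apart and higher, where 7.41% of all genes were, and 2 apart and lower, where 6.73% were.

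HIF1A, the oxygen-regulated subunit of the hypoxia-inducible factor, had 20.1, 12.9 and 13.7 FPKM in 2% succinate libraries, against 11.6, 14.5 and 19.1 FPKM in basal libraries. Over 25 genes of its pathway 14 were higher and 11 lower, with a median of 0.03. VEGFA, its angiogenic target, had 24.3, 24.7 and 20.4 FPKM with 2% succinate, against 16.7, 13 and 17.7 FPKM with the basal diet (limma adjusted p = 0.446). Another target, ADM, adrenomedullin, pointed the other way with 41.7, 28.8 and 28.5 FPKM in 2% succinate libraries, against 45.2, 39.4 and 58.2 FPKM in basal libraries. VHL, which marks the factor for destruction, had 7.26, 6 and 6.83 FPKM with 2% succinate, against 7.93, 8.52 and 8.56 FPKM with the basal diet. Of 20 TET and KDM demethylases, which use 2-oxoglutarate, 17 were higher, with a median of 0.12 that was 0.04 without replicate 1 of the basal diet. KDM6A, a histone H3 demethylase, was the apart and lower member, with 5.83, 5.65 and 5.23 FPKM in 2% succinate libraries, against 7.42, 8.17 and 8.4 FPKM in basal libraries (limma adjusted p = 0.36). TET2 was the apart and higher member, with 6.86, 8.74 and 7.39 FPKM with 2% succinate, against 6.23, 6.03 and 6.22 FPKM with the basal diet. So 1 of the 20 was apart in each direction, where 7.41% of all genes were apart and higher and 6.73% apart and lower.

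The clock genes lay in both directions, with 9 of 22 higher, a median of -0.11 and none called; the median was -0.25 without replicate 1 of the basal diet and -0.0049 without replicate 1 of the 2% diet. CLOCK, of the activating arm, had 6.27, 6.42 and 6.51 FPKM with 2% succinate, against 4.96, 4.14 and 4.14 FPKM with the basal diet (limma adjusted p = 0.415). The other clock gene apart and higher was RORA, a nuclear receptor that activates BMAL1, with 4.77, 4.84 and 4.85 FPKM in 2% succinate libraries, against 3.5, 3.82 and 4.42 FPKM in basal libraries. These 2 of 22 compare with 7.41% of all genes. Apart and lower were 3 of 22, where 6.73% of all genes were, and all 3 encode repressors. NR1D1, REV-ERB alpha, had 4.89, 6.03 and 6.08 FPKM with 2% succinate, against 8.75, 29.9 and 20.6 FPKM with the basal diet. PER1 had 7.29, 8.9 and 5.07 FPKM in 2% succinate libraries, against 11.3, 9.49 and 12.1 FPKM in basal libraries. CIART, a repressor of CLOCK and BMAL1 activity, had 8.69, 12.8 and 9.84 FPKM with 2% succinate, against 17.1, 23.7 and 21.4 FPKM with the basal diet (limma adjusted p = 0.203). Other repressors, PER2, PER3, CRY1, CRY2 and NR1D2, overlapped between the diets. The time of day of sampling is not given in the sources used here.

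Cytosolic ribosomal protein genes were lower with 2% succinate for 75 of 76 members tested, with a median of -0.35. None was called, and 22 of the 76 were apart and lower, where 6.73% of all genes were. By library the score was -0.16, -0.30 and -0.09 with 2% succinate, against 0.38, 0.31 and -0.15 with the basal diet, so replicate 3 of the basal diet lay among the 2% libraries. RPL6 had 545, 427 and 569 FPKM in 2% succinate libraries, against 1355, 894 and 800.2 FPKM in basal libraries, and RPS3A had 2307, 2056 and 2465 FPKM with 2% succinate, against 4140.1, 3132 and 3132 FPKM with the basal diet. Ribosomal transcripts are short, with a median length of 633 bases against 3141 over all genes tested. The median of the list was -0.12 after quantile normalization and -0.20 with the length trend removed, and 63 and 69 of the 76 members were then lower. The part of transcript length in this result was not tested further. Proteasome subunits had 28 of 38 lower, with a median of -0.07 that turned to 0.01 with the length trend removed.

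In the extracellular matrix, POSTN, periostin, was the clearest member, with 296, 243 and 225 FPKM in 2% succinate libraries, against 523, 406 and 379 FPKM in basal libraries (difference -0.77, limma adjusted p = 0.326). SPARC, a collagen-binding matricellular protein, had 1097, 791 and 944 FPKM with 2% succinate, against 744, 746 and 752 FPKM with the basal diet. The 23 collagen chains had a median of 0.03, which was -0.04 with the length trend removed. The 23 genes of cholesterol synthesis and uptake had a median of 0.04. IER3, an immediate early gene, had 80.7, 72.8 and 65.9 FPKM in 2% succinate libraries, against 103, 108 and 106 FPKM in basal libraries (limma adjusted p = 0.28). The lists of apoptosis regulators and endoplasmic reticulum stress had medians of 0.00 and 0.01, and those of the TGF-beta system, ketone enzymes and insulin-like growth factor system had -0.08, -0.08 and 0.13. No gene of these lists passed the test. Of the 40 lists with a median, 21 changed sign when 1 of the 6 libraries was left out, while the macrophage median lay between -0.71 and -0.25.

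**Figure D5:**
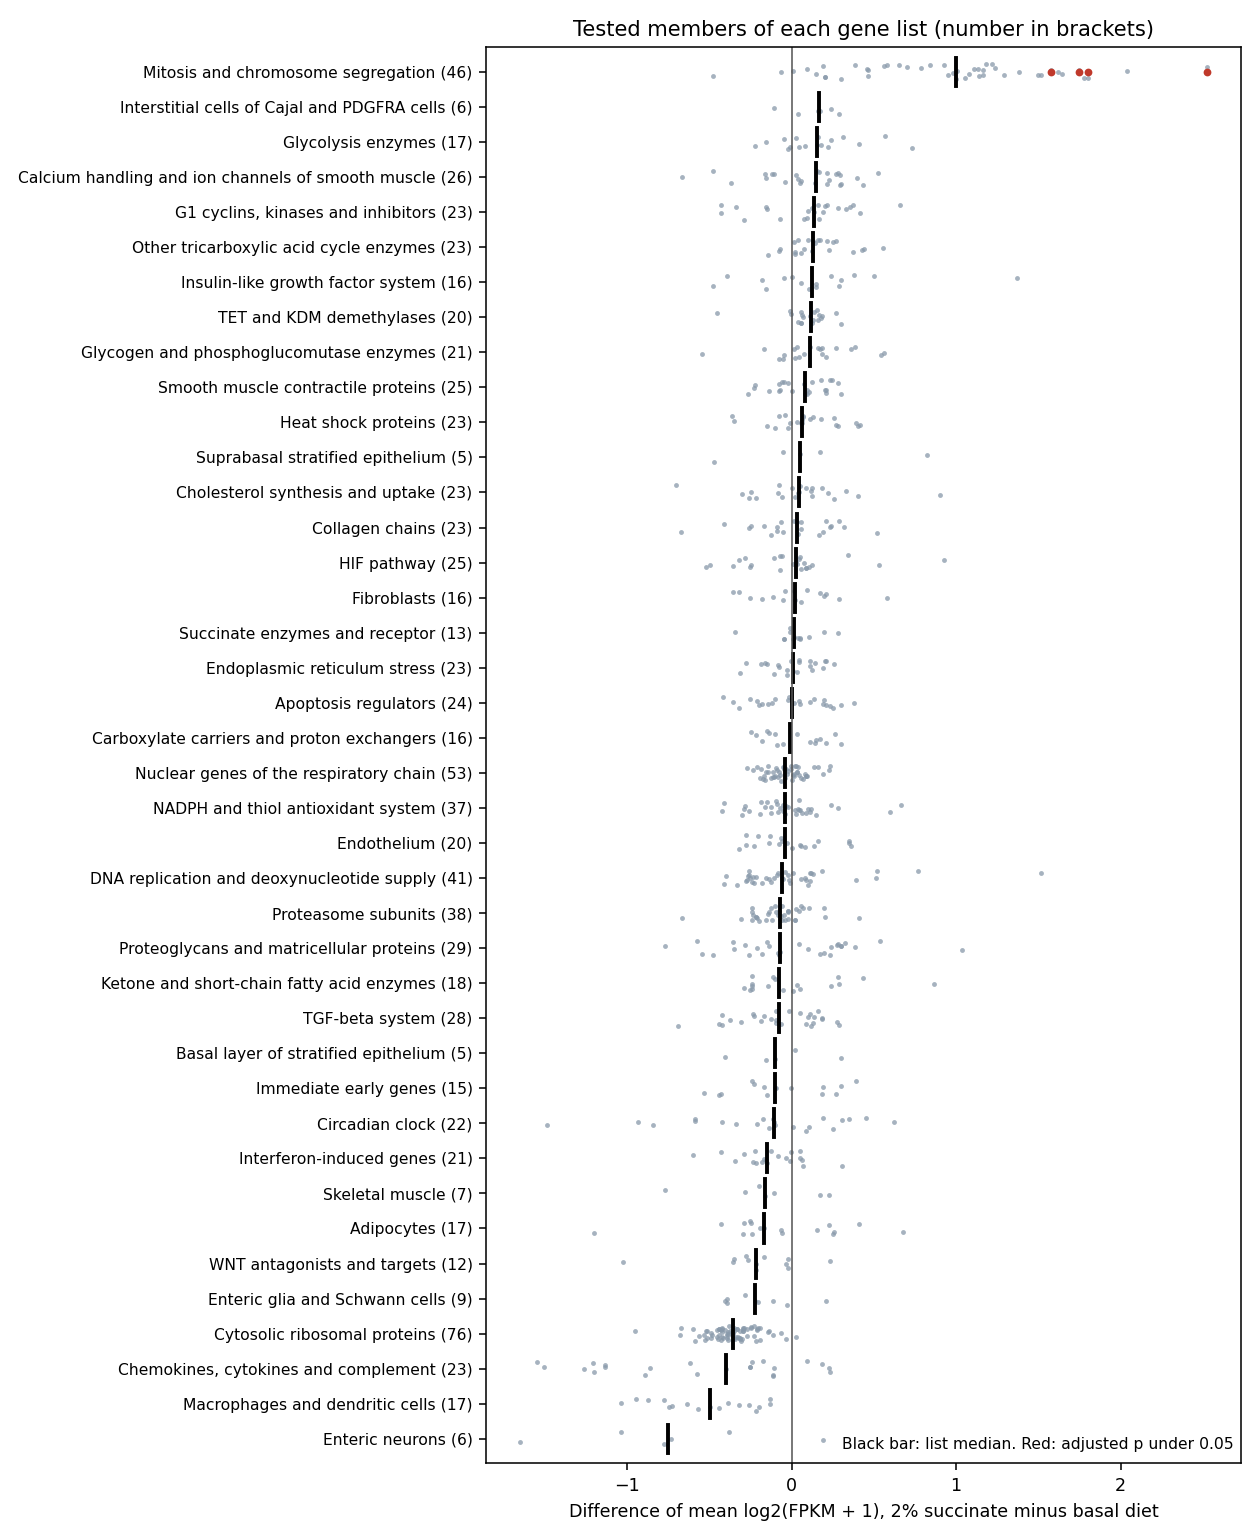
Difference of mean log2(FPKM + 1), 2% succinate minus basal diet (horizontal axis), for each tested member (points) of the 40 gene lists with at least 5 tested members (vertical axis, ordered by median); black bars are list medians, and red points are the 4 called members, all in the mitosis list. The mitosis list lies at a median of 1.00, with 20 of its 46 members tested through the 2% libraries only, and the lowest medians are those of enteric neurons, macrophages and chemokines.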

How the data were processed

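Messenger RNA was measured by sequencing; the 6 libraries compared were the 3 with 2% succinate and the 3 with the basal diet. The authors deposited FPKM values for 21257 genes with lengths and positions. The tools named are HTSeq 0.9.1, HISAT2 2.1.0 and cutadapt 1.15, per the submitters' processing notes; the genome build and strand setting are not given in the sources used here. Multiplying each value by its gene's length recovered the reads, with 100% of values whole to within 0.01, and so the depth of 15637779 to 18717309 assigned reads per library. A gene with 0 reads may have had up to 3, which is 0.160 to 0.192 CPM in these libraries; that limit covers counting error only. Chromosome numbers and 437 symbols in place of LOC numbers came from a RefSeq table (assembly ARS-UI_Ramb_v3.0), which matched 20874 gene IDs.

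Genes that reached 1 FPKM in 3 or more of the 6 libraries were tested on log2(FPKM + 1) with limma 3.58.1 (R 4.3.3, statmod 1.5.0), with an intensity trend, robust moderation, two-sided tests and Benjamini-Hochberg adjustment over all genes tested, at a threshold of 0.05. The added 1 FPKM shrinks differences of scarce genes. The procedure was tested on simulated data. For 1 gene alone, 3 libraries per diet allow no exact p under 0.10, so exact tests were left out. Differences between doses came from the same model over all 12 libraries.

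The comparison, its 45 gene lists and its tests were chosen with earlier results of these data known, so the lists carry no test and are described by counts and medians beside all genes. Named genes were every called gene; up to 12 in each direction with a symbol, a mean of at least 2 FPKM and no overlap between the diets, in order of p; up to 4 members of each list by p; and a fixed set of succinate, cycle and marker genes. Some genes under this rule are given only in counts or are not reported here. DEGS1 and other examples outside the rule (RRM1, NUF2, KIF20B, PTTG1, MYBL2, CD68, C3, MYL9, IDH3G, RORA, the genes listed for heat shock, clock repressors and epithelial lists, and those marked in the text) were chosen after their values were seen. Alternatives were all 12 libraries, a pseudocount of 0.1, no filter, a filter of 5 FPKM, TMM, quantile and length-corrected scaling, limma-voom on recovered reads, moderation that is not robust, library weights, a replicate block and each library left out; a filter on the mean of 12 libraries was added after seeing the data.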

Additional observations from a re-analysis of the deposited data

How the results depend on the processing

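The number of calls, 5, depended on the processing. It was 0 with all 12 libraries, with a pseudocount of 0.1, without a filter on low values, with a filter of 5 FPKM and by limma-voom, and likewise 0 in each of the 6 runs that left out 1 library. It was 6 with TMM scaling, 4 with quantile normalization, 6 with the length trend removed, 7 with library weights, and 5 both without robust moderation and with the filter on the mean of 12 libraries. Wherever they were tested the 5 genes were higher with 2% succinate; TOP2A and KIF20A were not tested with the filter of 5 FPKM. The adjusted p of the 5 genes by limma was between 0.0574 and 0.285 when 1 library was left out. Over all alternatives its highest value was 0.999 for each of the 5. Same-numbered libraries of the 2 diets did not deviate together (r of -0.347, -0.187 and -0.195). The labels do not say whether the numbers pair samples, and with 3 libraries per diet these values cannot settle it. With a replicate block the count was 0, with 608 genes at an unadjusted p under 0.05.

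The median of the mitosis list was 1.77 with a pseudocount of 0.1, 0.84 without a filter, 0.64 with a filter of 5 FPKM and 1.82 by limma-voom. The respiratory chain median was 0.13 with the length trend removed, and the ribosomal median -0.12 with quantile normalization. Leaving out 1 library at a time gave the clock median a range of -0.25 to -0.0049. For these moves the cause was not tested. Scarce mitotic genes that are near 0 in basal libraries rest on few reads there.

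Genes with a difference near 0 changed sign. With the length trend removed the difference was 0.0153 for CDK4, -0.0450 for KIF20B, -0.0579 for SDHB and 0.0272 for SUCLA2. With library weights it was -0.0251 for HIF1A, -0.0257 for SDHA and 0.0526 for SUCLA2. By limma-voom it was -0.0003 for KIF20B, and with quantile normalization 0.0152 for SUCLA2. With 1 library left out at a time, differences ran from -1.53 to 0.66 for ACTA2, -0.15 to 0.0067 for CDK4, -0.14 to 0.22 for HIF1A, -0.11 to 0.0746 for KIF20B, -0.18 to 0.0506 for NUF2, -0.0546 to 0.17 for PCNA, and -0.0688 to 0.0230 for RRM1. They also ran from -0.0764 to 0.0956 for SDHA, -0.0238 to 0.10 for SDHB, -0.0230 to 0.0704 for SDHD, -0.0876 to 0.51 for SLC16A1, -0.11 to 0.0448 for SUCLA2, and -0.0139 to 0.0779 for SUCLG1.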
